A study of Homo sapiens with 52 samples.

Results

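The signal recognition particle was followed through its RNA, its proteins and its receptor in i3Neurons, human neurons derived from WTC11, an induced pluripotent stem cell line. The 10 genes are RN7SL1 and RN7SL2, which encode the 7SL RNA, the particle's protein genes SRP9, SRP14, SRP19, SRP54, SRP68 and SRP72, and the receptor genes SRPRA and SRPRB. They were chosen by name, as parts of the particle and its receptor, but with earlier results of these data known. Each symbol matched 1 of the 63241 genes in the deposited count table. Of the 10 genes, 9 had a count in every library used. RN7SL2 had none.

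Inserts with a porous membrane, with pores of 1 µm, separated a neurite fraction from a soma fraction. Neurons were replated on day 3 and harvested on day 17 of doxycycline, which switches on the transgene that turns these stem cells into neurons. Cells with no guide RNA gave 4 neurite and 4 soma libraries, called untreated below. In the hnRNPA1 experiment, cells with a guide RNA that knocks down hnRNPA1, an RNA-binding protein that takes part in splicing, gave 6 neurite and 6 soma libraries, and cells with a nontargeting guide RNA gave 6 and 6. In the TDP43 experiment, knockdown of TDP43, the RNA-binding protein encoded by TARDBP, gave 5 neurite and 4 soma libraries in use, and the nontargeting controls gave 5 and 5. All libraries came from 1 cell line. Each library started from 10 ng of RNA. Version 2 of the total RNA library kit served for untreated cells and version 3 for both knockdown experiments, so the kit and the experiment cannot be told apart. The labels do not say whether samples of a group were separate cultures, so p-values measure the spread between these samples, which may be technical.

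The signal recognition particle binds the signal sequence of a nascent secretory or membrane protein and takes the ribosome to the endoplasmic reticulum, which in neurons reaches from the soma into neurites. RNA polymerase III makes its scaffold, the 7SL RNA, which folds into an Alu domain and an S domain. SRP9 and SRP14 bind the Alu domain as a heterodimer that slows elongation, SRP19 helps SRP54 onto the S domain, SRP54 is the GTPase that holds the signal sequence, and SRP68 and SRP72 form the other S-domain heterodimer. SRPRA is the receptor's GTPase that docks the particle, and SRPRB is its membrane anchor.

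The 7SL genes are near copies, which bears on every 7SL value. RN7SL1 (ENSG00000276168.1, plus strand), RN7SL2 (ENSG00000274012.1, minus strand) and RN7SL3 (ENSG00000278771.1, minus strand) each have a single exon and lie on chromosome 14 of hg38 in GENCODE release 29. Identity to RN7SL1 was 98.3% in RN7SL2 and 97.7% in RN7SL3, and 85.6% and 85.5% in the pseudogenes RN7SL4P and RN7SL5P. Of the 250 windows of 50 bases in RN7SL1, 84.4% were also found in another annotated transcript, and 63.2% of the 250 were found in RN7SL2. A read of that length from most of the 7SL RNA therefore has more than 1 possible source.

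RN7SL1 held 28117186 counts over the 51 libraries, RN7SL4P 8362717, RN7SL5P 5930231 and RN7SL3 573053. RN7SL2 had 0 counts in each library, which allows a share of at most 1.04e-05% to 0.000118% of a library's counts for counting error alone. RN7SK, RPPH1 and VTRNA1-1, other abundant RNAs made by RNA polymerase III, were also listed at 0. Among small noncoding genes that lie wholly inside exons of other genes on the same strand, 314 of 314 had no count, against 324 of 4813 (6.7%) of those that do not. RN7SL2 is not such a gene in GENCODE release 29, but the authors' own annotation is not known here. RN7SL1, which had counts in every library, is not among the 314. All 299 of its bases nevertheless lie inside exons of ENSG00000283029 on the same strand, a gene that the deposited counts do not list. Whether overlap bears on the 0 counts of RN7SL2 was not tested. In every library RN7SL1 made up 58.9 to 67.2% of the counts of all RN7SL genes. The 7SL share below is RN7SL1 plus RN7SL2 as a percentage of a library's counts, and it cannot be assigned to 1 of the near copies.

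In units of 1000000 counts, libraries held 2.54 to 4.35 in untreated neurites and 5.21 to 10.52 in untreated soma. Neurite libraries of the hnRNPA1 experiment held 6.26 to 14.98 and soma libraries 8.0 to 19.42, and those of the TDP43 experiment held 6.83 to 14.51 and 15.72 to 28.9. The widest 95% Wilson interval of a 7SL share spanned 3.28% of its value, for counting error only. HNRNPA1 had 201 ± 16.0 CPM in hnRNPA1 knockdown neurites against 589.5 ± 32.6 in control neurites, and 141 ± 9.35 in knockdown soma against 361 ± 20.7 in control soma (SD, n = 6 each). TARDBP had 41.8 ± 4.29 CPM in TDP43 knockdown neurites against 117 ± 7.31 in control neurites (SD, n = 5 each), and 19.5 ± 0.934 in knockdown soma (n = 4) against 111 ± 4.59 in control soma (n = 5). CPM are counts per 1000000 after TMM scaling, which sets the libraries of an experiment to a common trimmed mean. The 10 neuron markers, among them MAP2, TUBB3 and SNAP25, summed to at least 6168 CPM in every library. The 7 pluripotency markers summed to at most 19.7 CPM. The 5 nuclear-retained RNAs, among them MALAT1, summed to 2057 to 2658 CPM in untreated neurites against 2300 to 3317 in soma. In hnRNPA1 controls they had 1771 to 1932 in neurites against 1729 to 2450 in soma. TDP43 controls had 1898 to 2631 against 2155 to 2496. Only knockdown cells were free of overlap, at 1711 to 1966 against 2082 to 2883 (hnRNPA1) and 1491 to 1682 against 2301 to 2970 (TDP43). Soma RNA in the neurite fraction was not tested. In bulk RNA, fewer cells of a type and less RNA per cell cannot be told apart.

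Most of the neurite contrasts depend on a scaling choice. With library sizes in place of TMM, the median log2 difference of all genes, neurites over soma, was -1.43 in untreated cells, against -0.21 with TMM. The same medians were -0.46 against -0.02 in hnRNPA1 knockdown, -0.40 against -0.05 in hnRNPA1 controls, -0.56 against -0.03 in TDP43 knockdown and -0.63 against -0.03 in TDP43 control cells. For hnRNPA1 knockdown over control in neurites the median was -0.14 against 0 with TMM. The split of calls over all genes moved too. Higher in neurites were 2046 of 16984 calls with library sizes against 5331 of 10492 with TMM in untreated cells, 1156 of 14533 against 3844 of 7110 in hnRNPA1 knockdown, 1913 of 14045 against 4658 of 9587 in hnRNPA1 controls, 2178 of 15756 against 6324 of 12733 in TDP43 knockdown and 1902 of 16458 against 5324 of 10258 in TDP43 control cells. Higher in hnRNPA1 knockdown were 607 of 4433 calls in neurites against 1764 of 3190 with TMM, and 492 of 1211 in soma against 748 of 1401. In TDP43 knockdown neurites 1786 of 2575 calls were higher against 3063 of 5445 with TMM, and for the change of the neurite to soma ratio 132 of 335 against 1275 of 2303 in the TDP43 experiment and 7 of 70 against 9 of 35 in the hnRNPA1 experiment. A difference is therefore also given relative to the median gene, and for the 8 protein genes that value differed by at most 0.04 on the log2 scale between the scalings, against at most 0.19 for RN7SL1. Both scalings apply a factor per library to all genes, so this closeness is built in. It cannot show which scaling is right or that a call holds under both.

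7SL took a larger share of counts in neurites than in soma in each set of cells, and it was higher in the libraries of the knockdown experiments, made with the other kit version, than in untreated cells. In untreated neurites it was 0.711, 0.558, 1.2 and 1.167% of counts, against 0.224, 0.289, 0.232 and 0.444% in untreated soma. The lowest neurite library lay above the highest soma library. Untreated neurites averaged 0.907 ± 0.320% and untreated soma 0.297 ± 0.102% (SD, n = 4 each), a 3.05-fold higher share. The exact 2-sided permutation p was 0.0286, the smallest that 4 against 4 allows, and 0.0429 adjusted over the 9 share comparisons. With any of the 4 soma libraries left out the adjusted p was 0.0735.

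The lowest, median and highest 7SL shares of the hnRNPA1 experiment were 6.59, 9.05 and 12.2% in knockdown neurites, against 1.82, 1.958 and 2.17% in knockdown soma. They were 3.54, 7.23 and 7.85% in control neurites, against 1.06, 1.499 and 1.899% in control soma. Neurite and soma libraries did not overlap in either set. Means were 9.28 ± 1.89% in knockdown neurites and 1.98 ± 0.133% in knockdown soma, 4.69-fold higher, and 6.72 ± 1.62% in control neurites and 1.501 ± 0.398% in control soma, 4.47-fold higher (SD, n = 6 each, exact permutation p = 0.00216, the smallest possible, adjusted p = 0.00974 for each).

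TDP43 neurites had the widest spread. The shares were 13.1, 20.7, 5.13, 3.88 and 3.52% in TDP43 knockdown neurites, against 1.65, 1.49, 1.173 and 1.704% in knockdown soma. In control neurites they were 14.04, 12.5, 29.5, 21.95 and 11.15%, against 0.958, 1.53, 1.69, 1.46 and 1.2% in control soma. No neurite library overlapped a soma library, although 3 of the 5 knockdown neurite libraries held under 6% and the other 2 over 13%. The mean was 9.26 ± 7.48% in knockdown neurites (n = 5) and 1.505 ± 0.240% in knockdown soma (n = 4), 6.15-fold higher, with an exact permutation p of 0.0476 and an adjusted p of 0.0612. Tested on the log2 scale, the same comparison had an adjusted p of 0.0312. In controls the mean was 17.8 ± 7.75% in neurites and 1.36 ± 0.296% in soma, 13.1-fold higher (n = 5 each, exact permutation p = 0.00794, the smallest possible, adjusted p = 0.0238).

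**Figure D1:**
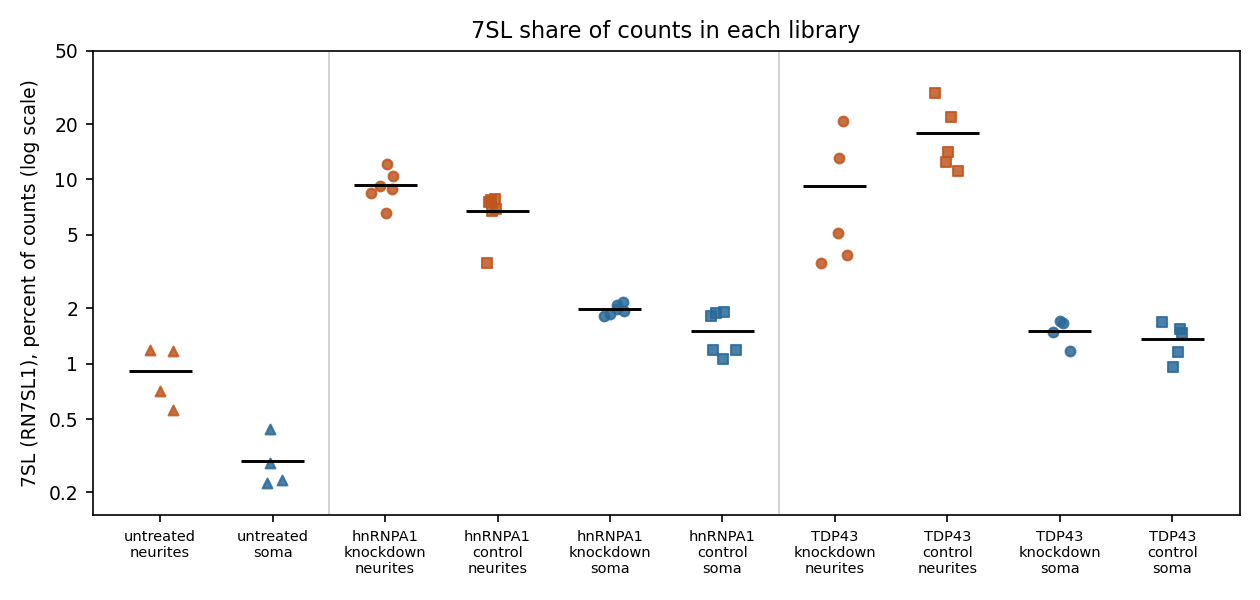
Share of each library's counts held by 7SL (RN7SL1), in percent on a log axis, with 1 point per library and a line at the group mean. Neurite libraries (orange) lie above the soma libraries (blue) of the same treatment throughout, from 0.558 to 1.2% against 0.224 to 0.444% in untreated cells up to 11.15 to 29.5% against 0.958 to 1.69% in TDP43 controls.

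In edgeR's quasi-likelihood test over all genes, RN7SL1 was higher in neurites in all 5 contrasts. The log2 difference ± SE was 2.80 ± 0.23, adjusted p = 8.29e-10 in untreated cells, 2.68 ± 0.20, adjusted p = 1.11e-12 in hnRNPA1 knockdown, 2.52 ± 0.20, adjusted p = 2.21e-12 in hnRNPA1 controls, 3.35 ± 0.50, adjusted p = 2.35e-06 in TDP43 knockdown and 4.46 ± 0.48, adjusted p = 1.15e-08 in TDP43 controls. With library sizes the log2 differences were, in the same order, 1.57, 2.23, 2.16, 2.62 and 3.71. Relative to the median gene the untreated value was 3.01 with TMM and 3.00 with library sizes. Ribosomal RNA genes took 4.89 to 7.36% of counts in untreated neurites against 1.298 to 1.77% in untreated soma. In the hnRNPA1 experiment they took 4.81 to 6.72% in knockdown neurites against 3.96 to 5.04% in knockdown soma, and 2.31 to 4.47% in control neurites against 2.32 to 4.68% in control soma. In the TDP43 experiment they took 4.24 to 5.90% in knockdown neurites against 3.39 to 4.19% in knockdown soma, and 3.25 to 4.28% in control neurites against 2.98 to 5.39% in control soma. In untreated cells the neuron markers summed to 21671 to 27664 CPM in neurites against 6935 to 8220 CPM in soma, and the 6 neural progenitor markers to 215.5 to 252.9 CPM in neurites against 75.3 to 86.6 CPM in soma. The part of these values in the 7SL difference was not tested.

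By mean 7SL share the order of the 10 groups was TDP43 control neurites, hnRNPA1 knockdown neurites, TDP43 knockdown neurites and hnRNPA1 control neurites, then the 4 soma groups of the knockdown experiments at 1.36 to 1.98%, then untreated neurites at 0.907% and untreated soma at 0.297%. Untreated neurites overlap TDP43 control soma, the group above them. By mean RN7SL1 CPM the order was TDP43 control neurites, TDP43 knockdown neurites, hnRNPA1 knockdown neurites and hnRNPA1 control neurites, whose neighbouring ranges overlap, then hnRNPA1 knockdown soma, with a gap between these last 2. Untreated neurites, at 13864 ± 4039 CPM (n = 4), stood among the soma groups of the knockdown experiments instead of below them, with TMM factors of 0.60 to 0.70 in those 4 libraries, and untreated soma was lowest, below the range of TDP43 control soma. Levels of untreated and other cells were scaled separately, and kit version goes with that split.

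hnRNPA1 knockdown went with a larger 7SL share in both fractions. In neurites the share was 6.59, 9.05 and 12.2% (lowest, median and highest) with knockdown against 3.54, 7.23 and 7.85% in controls, and in soma it was 1.82, 1.958 and 2.17% against 1.06, 1.499 and 1.899%. Knockdown and control libraries overlapped in both fractions. The mean was 1.38-fold higher in neurites (9.28 ± 1.89 against 6.72 ± 1.62%, exact permutation p = 0.0238, adjusted p = 0.0429) and 1.32-fold higher in soma (1.98 ± 0.133 against 1.501 ± 0.398%, exact permutation p = 0.0173, adjusted p = 0.0390, n = 6 each). RN7SL1 in edgeR was higher by 0.60 ± 0.19, adjusted p = 0.0266 in neurites, and its value was 0.44 ± 0.19, adjusted p = 0.177 in soma. The change of the neurite to soma ratio was 0.17 ± 0.27, adjusted p = 0.904. These calls rest on few libraries. The adjusted p of the share was 0.0520 to 0.0696 in neurites without knockdown sample 1, 3, 5 or 6 or control sample 1, 2 or 3, and 0.0520 to 0.0779 in soma without knockdown sample 1, 3, 4, 5 or 6, and the edgeR call in neurites was lost without control sample 1 or 3 or knockdown sample 1 or 6 (adjusted p = 0.0545 to 0.0917). The neural progenitor markers summed to 562.8 to 702.8 CPM in hnRNPA1 knockdown neurites against 445.1 to 553.3 CPM in control neurites, and to 323.6 to 359.9 CPM in knockdown soma against 244 to 267.6 CPM in control soma. Ribosomal RNA took 4.81 to 6.72% of counts in knockdown neurites against 2.31 to 4.47% in control neurites, without overlap, and 4.44 ± 0.449% in knockdown soma against 3.24 ± 0.979% in control soma (SD, n = 6 each). The part of either in the 7SL result was not tested.

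TDP43 knockdown showed no 7SL difference that passed the share test or edgeR. In neurites the mean share was 9.26 ± 7.48% with knockdown and 17.8 ± 7.75% in controls (n = 5 each, exact permutation p = 0.127, adjusted p = 0.143), and knockdown samples 1 and 2 lay inside the control range while the other 3 lay below it. Without control neurite sample 4, at 29.5% the highest, the difference of the means was -5.64 percentage points, against -8.55 with it. In soma it was 1.505 ± 0.240% with knockdown (n = 4) and 1.36 ± 0.296% in controls (n = 5, exact permutation p = 0.476, adjusted p = 0.476), and the difference of 0.144 percentage points was 0.0438 to 0.255 with single libraries left out. RN7SL1 in edgeR had -0.96 ± 0.42, adjusted p = 0.0983 in neurites, 0.15 ± 0.44, adjusted p = 0.873 in soma and -1.11 ± 0.61, adjusted p = 0.258 for the change of the neurite to soma ratio. Without TDP43 knockdown neurite sample 2, at 20.7% the highest of its group, the neurite value was -1.70 with an adjusted p of 0.00148, and the ratio changed by -1.84 with an adjusted p of 0.0228. RN7SL1 in neurites was also called lower with library sizes (-0.94, adjusted p = 0.0113) and with limma-voom (-1.296, adjusted p = 0.0215). With no filter on low counts edgeR gave -0.98, near the -0.96 of the main fit, but an adjusted p of 4.26e-35. That p rests on a far smaller estimate of spread, although the knockdown shares ran from 3.52 to 20.7%, so it adds no support.

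SRP14 was the protein gene with the largest neurite difference. In untreated cells it had 653, 650.5, 573 and 617 CPM in the 4 neurite libraries against 152, 152, 165 and 196 CPM in the 4 soma libraries, and no neurite value came near a soma value. The log2 difference was 1.91 ± 0.11, adjusted p = 1.45e-12, 3.75-fold, with TMM. With library sizes it was only 0.66. SRP9, its partner, had 304, 299, 211 and 270.5 CPM in untreated neurites against 119, 124, 137 and 164 CPM in untreated soma, again without overlap. Its log2 difference was 0.99 ± 0.12, adjusted p = 5.5e-07 with TMM and -0.26, adjusted p = 0.0299 with library sizes, the opposite direction. Relative to the median gene, SRP14 was higher by 2.12 and SRP9 by 1.2 with TMM, and by 2.09 and 1.2 with library sizes.

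In the hnRNPA1 experiment, with TMM, SRP14 was higher in neurites and SRP9 did not pass the test. SRP14 had 234, 242 and 249.5 CPM (lowest, median and highest) in knockdown neurites against 146, 167 and 198 in knockdown soma, and 215, 239 and 269 in control neurites against 148, 160 and 173 in control soma. The fractions did not overlap in either set, and the log2 difference was 0.52 ± 0.06, adjusted p = 1.55e-08 with knockdown and 0.57 ± 0.06, adjusted p = 7.96e-10 in controls. SRP9 had 111, 120.2 and 146 CPM in knockdown neurites against 116, 124 and 157 in knockdown soma, and 109.6, 139 and 156 in control neurites against 115, 137 and 150.5 in control soma. Its ranges overlapped almost fully, with log2 differences of -0.06 ± 0.08, adjusted p = 0.646 and 0.01 ± 0.08, adjusted p = 0.915. With library sizes SRP14 was 0.08, adjusted p = 0.265 with knockdown, so that call was lost, and 0.22, adjusted p = 0.00267 in controls. SRP9 was then called lower in neurites, at -0.49, adjusted p = 4.74e-05 with knockdown and -0.34, adjusted p = 0.00238 in controls.

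In the TDP43 experiment both Alu-domain genes were higher in neurites with TMM. SRP14 had 169, 142, 168, 168 and 158 CPM in knockdown neurites against 119, 107, 119 and 107 in knockdown soma, and 154, 138, 216, 192 and 161 in control neurites against 114, 114, 116, 108 and 109 in control soma. SRP9 had 109, 103, 125, 111 and 108 CPM in knockdown neurites against 98.0, 82.3, 94.9 and 85.9 in knockdown soma, and 112, 112, 127, 122 and 123 in control neurites against 92.9, 93.4, 109.8, 80.3 and 89.7 in control soma. All 4 pairs of groups were free of overlap, by a narrow margin for SRP9 in controls. With TMM the log2 difference of SRP14 was 0.51 ± 0.09, adjusted p = 1.14e-05 with knockdown and 0.61 ± 0.08, adjusted p = 4.22e-07 in controls, and that of SRP9 was 0.30 ± 0.07, adjusted p = 0.00111 and 0.35 ± 0.07, adjusted p = 0.000145, while with library sizes these 4 values were -0.02, -0.03, -0.23 and -0.27 and none passed (adjusted p = 0.0632 to 0.900). Relative to the median gene SRP14 in controls was higher by 0.64 with TMM and 0.60 with library sizes, and SRP9 by 0.38 and 0.36.

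The ratio of SRP14 to SRP9 within a library is free of scaling. Its mean was 2.33 in untreated neurites (range 2.15 to 2.71) against 1.226 in untreated soma (1.194 to 1.28). It was 1.97 in hnRNPA1 knockdown neurites against 1.32 in knockdown soma, and 1.78 in hnRNPA1 control neurites against 1.205 in control soma, without overlap. It was 1.45 in TDP43 knockdown neurites against 1.25 in knockdown soma, without overlap, and 1.44 (1.236 to 1.701) in TDP43 control neurites against 1.214 (1.06 to 1.35) in control soma, where the ranges overlap. The mean ratio of SRP14 to SRP9 was thus higher in neurites in each set, given here as a description with no test. Other partner ratios kept no common direction. SRPRA over SRPRB averaged 1.058 in untreated neurites against 1.446 in untreated soma, but its mean was higher in neurites in each other set. SRP72 over SRP68 averaged 5.22 in untreated neurites against 3.69 in untreated soma, but its mean was lower in neurites in each other set.

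With TMM 3 of the 4 S-domain genes were called between untreated fractions, where 56.5% of all genes were called, and none in the other sets. With library sizes all 4 were called lower in neurites in each of the 5 sets, as were most of all genes called. SRP19 had 14.5, 12.2, 13.6 and 12.2 CPM in untreated neurites against 25.6, 19.2, 19.8 and 19.4 in untreated soma, all 4 neurite values below all 4 soma values. Its log2 difference was -0.69 ± 0.16, adjusted p = 0.00117. SRP72 had 212, 237, 185 and 206 CPM in untreated neurites against 169, 164, 179 and 194 in untreated soma, which overlap, and a log2 difference of 0.25 ± 0.10, adjusted p = 0.0397 (-0.996, adjusted p = 1.27e-08 with library sizes). Without neurite sample 5 or soma sample 4, 5 or 6 its adjusted p was 0.0521 to 0.130. SRP68, its partner, had 37.9, 41.6, 39.4 and 42.0 CPM in untreated neurites against 48.6, 46.0, 50.1 and 46.6 in untreated soma without overlap, and a log2 difference of -0.25 ± 0.10, adjusted p = 0.042. That call was lost without any 1 of the neurite samples or without soma sample 4 or 6 (adjusted p = 0.0837 to 0.364), and relative to the median gene SRP68 differed by only -0.04. SRP54, at 39.8, 56.9, 41.0 and 45.6 CPM in untreated neurites against 49.0, 41.5, 48.8 and 53.0 in untreated soma, did not pass the test (-0.08 ± 0.12, adjusted p = 0.583).

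In the knockdown experiments 0 of the 4 S-domain genes were called between neurites and soma by edgeR with TMM in any of the 4 contrasts. The shares of all genes called were 35.9% in hnRNPA1 knockdown, 48.3% in hnRNPA1 controls, 57.7% in TDP43 knockdown and 46.5% in TDP43 controls. With library sizes 4 of 4 were called lower in neurites in each, as were most of all genes called. The medians of the 4 were then -0.40 in hnRNPA1 knockdown, -0.33 in hnRNPA1 controls, -0.55 in TDP43 knockdown and -0.66 in TDP43 controls. At an unadjusted p under 0.05 there was 1 in hnRNPA1 knockdown (SRP68), 1 in hnRNPA1 controls (SRP68), 0 in TDP43 knockdown and 1 in TDP43 controls (SRP19), and DESeq2 and limma-voom called 0 in each. SRP68 had 41.5, 45.0 and 47.5 CPM (lowest, median and highest) in hnRNPA1 knockdown neurites against 37.3, 42.4 and 45.8 in knockdown soma and a log2 difference of 0.12 ± 0.05, adjusted p = 0.0906, and it passed without knockdown soma sample 4 (0.15, adjusted p = 0.0366). In hnRNPA1 controls its value was 0.11 ± 0.05, adjusted p = 0.083. SRP19 came nearest in TDP43 controls, with 15.9, 19.2, 20.5, 18.4 and 20.6 CPM in neurites against 22.2, 21.0, 21.9, 19.4 and 20.9 in soma (-0.17 ± 0.08, adjusted p = 0.0773), and it passed without control neurite sample 6 or control soma sample 5 (adjusted p = 0.0454 and 0.0467).

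Where a receptor gene was called between fractions, it was lower in neurites. SRPRA had 25.3, 26.2, 29.5 and 24.9 CPM in untreated neurites against 38.9, 35.5, 39.0 and 36.6 in untreated soma, without overlap, and a log2 difference of -0.49 ± 0.12, adjusted p = 0.00115. It was also lower in neurites in TDP43 controls, at 38.9, 37.0, 41.0, 35.2 and 38.5 CPM in neurites against 45.7, 41.8, 43.67, 44.0 and 47.8 in soma (-0.23 ± 0.06, adjusted p = 0.00098). In TDP43 knockdown cells it had 47.1, 48.1, 48.4, 50.5 and 53.1 CPM in neurites against 51.3, 49.5, 48.5 and 48.6 in soma, which overlap, and did not pass the test (0.00 ± 0.06, adjusted p = 0.969, and -0.53, adjusted p = 0.000384 with library sizes). In the hnRNPA1 experiment it was lower in neurites by small amounts, with log2 differences of -0.18 ± 0.06, adjusted p = 0.0203 in knockdown cells and -0.16 ± 0.06, adjusted p = 0.0256 in controls. These calls were lost without hnRNPA1 knockdown neurite sample 1 or 4 or knockdown soma sample 4 (adjusted p = 0.0651 to 0.0760), and without hnRNPA1 control neurite sample 3 or 6 or control soma sample 1 or 6 (adjusted p = 0.0537 to 0.0776).

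With TMM SRPRB did not pass the test between untreated fractions, at 27.8, 24.9, 26.8 and 21.2 CPM in neurites against 25.2, 24.5, 28.2 and 26.0 in soma (-0.05 ± 0.13, adjusted p = 0.739, 95% interval -0.30 to 0.20), and with library sizes it was called lower in neurites, at -1.28, adjusted p = 4.5e-08. In the other 4 sets it was lower in neurites. With lowest, median and highest values, hnRNPA1 cells had 22.9, 24.3 and 29.6 CPM in knockdown neurites against 26.0, 30.4 and 35.0 in knockdown soma, and 21.8, 25.7 and 27.6 in control neurites against 31.3, 32.8 and 34.7 in control soma. Only the controls were free of overlap. The log2 differences were -0.28 ± 0.07, adjusted p = 0.00306 with knockdown and -0.38 ± 0.07, adjusted p = 3e-05 in controls. In the TDP43 experiment it had 24.0, 26.7, 25.6, 29.8 and 30.6 CPM in knockdown neurites against 33.6, 36.5, 38.2 and 32.9 in knockdown soma, and 21.6, 21.9, 23.6, 22.4 and 21.3 in control neurites against 30.0, 29.6, 29.6, 27.1 and 31.5 in control soma. Neither pair overlapped, and the log2 differences were -0.36 ± 0.07, adjusted p = 8.44e-05 and -0.42 ± 0.07, adjusted p = 1.31e-05. In these 4 contrasts the value relative to the median gene ran from -0.26 to -0.39 with TMM.

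**Figure D2:**
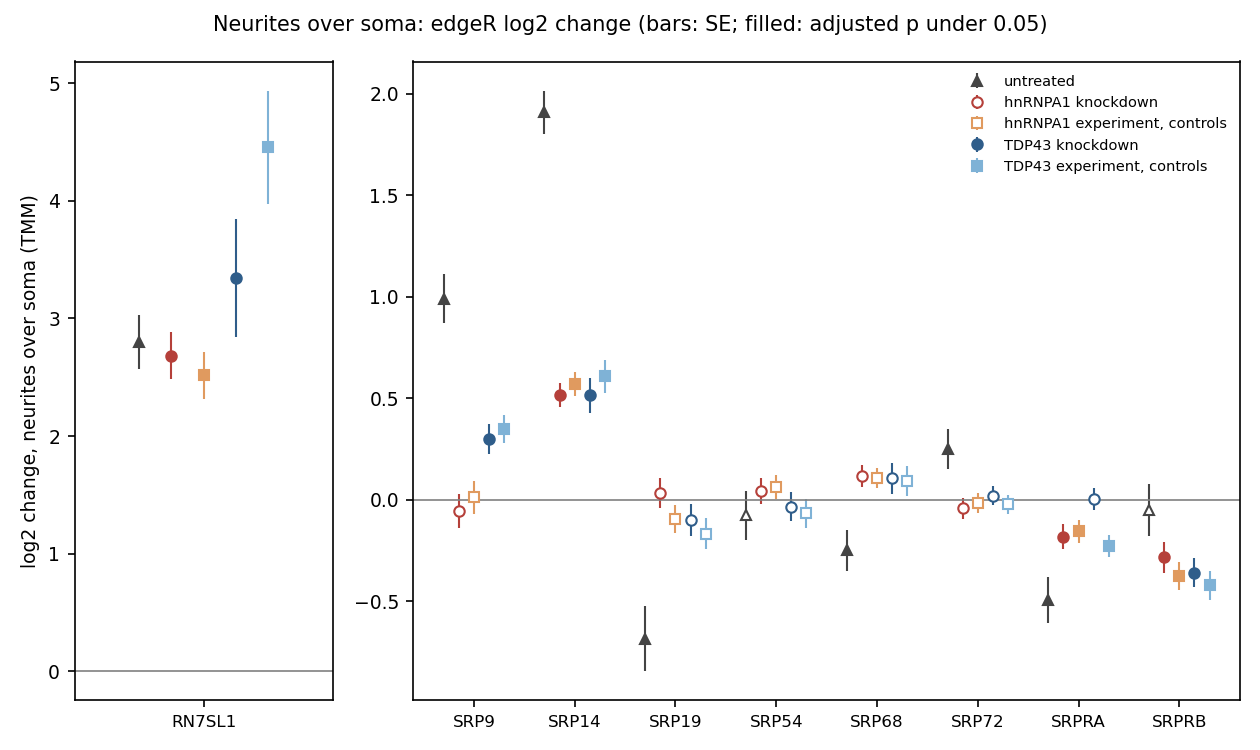
Log2 difference between neurites and soma from edgeR with TMM for RN7SL1 (left) and the 8 protein genes (right), with bars of 1 SE and filled symbols where the adjusted p was under 0.05. RN7SL1 lies between 2.52 and 4.46 in all 5 sets, SRP14 is highest among the protein genes in each set, at 0.51 to 1.91, and SRPRB lies at -0.28 to -0.42 in the 4 sets of the knockdown experiments.

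Counted over the 8 protein genes, 3 were higher and 3 lower in untreated neurites, where 28.7% and 27.8% of all genes tested were called in those directions (56.5% in either). In hnRNPA1 knockdown 1 was higher and 2 lower (19.4% and 16.5% of all genes, 35.9% in either), and in hnRNPA1 controls 1 and 2 (23.5% and 24.9%, 48.3% in either). In TDP43 knockdown 2 were higher and 1 lower (28.6% and 29% of all genes, 57.7% in either), and in TDP43 controls 2 and 2 (24.1% and 22.3%, 46.5% in either). These shares are near those of all genes. With library sizes 1 was higher and 7 lower in untreated neurites, 0 and 7 in hnRNPA1 knockdown, 1 and 7 in hnRNPA1 controls, 0 and 6 in TDP43 knockdown and 0 and 6 in TDP43 controls, and the calls over all genes moved the same way, as given above. With TMM the median log2 difference of the 8 genes was -0.06 in untreated cells, against -0.21 over all genes, and -0.05 to 0.01 in the other 4 sets, against -0.05 to -0.02.

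TDP43 knockdown went with higher RNA of both receptor genes in neurites and of SRPRB in soma. In neurites SRPRA had 47.1, 48.1, 48.4, 50.5 and 53.1 CPM with TDP43 knockdown against 38.9, 37.0, 41.0, 35.2 and 38.5 CPM in controls, every knockdown library above every control library. The log2 change was 0.38 ± 0.06, adjusted p = 1.24e-05, 1.303-fold. SRPRB had 24.0, 26.7, 25.6, 29.8 and 30.6 CPM in knockdown neurites against 21.6, 21.9, 23.6, 22.4 and 21.3 CPM in control neurites, also without overlap, and a log2 change of 0.32 ± 0.07, adjusted p = 0.00241, 1.25-fold. In soma SRPRB had 33.6, 36.5, 38.2 and 32.9 CPM with knockdown against 30.0, 29.6, 29.6, 27.1 and 31.5 CPM in controls (0.25 ± 0.07, adjusted p = 0.00545, 1.193-fold, without overlap). SRPRA in soma had 51.3, 49.5, 48.5 and 48.6 CPM with knockdown against 45.7, 41.8, 43.67, 44.0 and 47.8 CPM in controls, without overlap, and just missed the threshold (0.15 ± 0.05, adjusted p = 0.0506). The change of the neurite to soma ratio by knockdown was 0.23 ± 0.08, adjusted p = 0.0543 for SRPRA and 0.06 ± 0.10, adjusted p = 0.741 for SRPRB, so a difference between fractions in the response was not shown.

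Of the S-domain genes, SRP54 and SRP72 passed the test in TDP43 knockdown neurites. SRP54 had 30.7, 30.7, 30.3, 29.1 and 39.1 CPM in knockdown neurites against 29.6, 27.6, 28.8, 25.9 and 27.2 in control neurites (0.21 ± 0.07, adjusted p = 0.0398). The fifth knockdown library stands apart at 39.1 CPM, and without it the change was 0.11 with an adjusted p of 0.218. The SRP54 call was also lost without control neurite sample 2, 5 or 6 (adjusted p = 0.0676 to 0.0904). SRP72 had 120.4, 119, 118, 125 and 126 CPM in knockdown neurites against 108, 114, 105, 114 and 111 in control neurites, without overlap, and a small log2 change of 0.14 ± 0.05, adjusted p = 0.0309. Its call was lost without control neurite sample 1 or 4 or knockdown neurite sample 4 or 5 (adjusted p = 0.0542 to 0.0698). In soma SRP54 had 33.0, 32.8, 33.0 and 32.8 CPM with knockdown against 31.7, 30.0, 27.4, 28.6 and 28.3 CPM in controls, the 4 knockdown values close together and above all control values (0.17 ± 0.07, adjusted p = 0.0703).

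In all, 4 of the 8 protein genes were higher and 0 lower in TDP43 knockdown neurites, where 13.9% of all genes were called higher and 10.8% lower (24.7% in either direction). In TDP43 knockdown soma 1 was higher and 0 lower (9.36% and 9.55% of all genes, 18.9% in either). DESeq2 called 4 in neurites and 2 in soma, and limma-voom 3 and 3. Scaled by library size instead, 2 were called in neurites (SRPRA and SRPRB) and 0 in soma, where SRPRB kept its log2 change of 0.25 with an adjusted p of 0.316. For the change of the ratio edgeR called 0 of 8, against 10.4% of all genes (5.77% higher, 4.66% lower). There 1 had an unadjusted p under 0.05 (SRPRA), and DESeq2 and limma-voom called 1 each. SRP9, SRP14, SRP19 and SRP68 passed the test in neither fraction, with log2 changes of -0.10 to 0.10 in neurites and -0.05 to 0.04 in soma. SRP9, for example, had a log2 change of -0.10 ± 0.07, adjusted p = 0.353 in neurites. The neural progenitor markers (6 of 6 found) summed to 434.5 to 530.5 CPM in TDP43 knockdown neurites against 352 to 418 CPM in control neurites, and to 246 to 276 CPM in knockdown soma against 188 to 239 CPM in control soma. Of them HES1 stayed under 1 CPM in all groups but the TDP43 knockdown neurites. The 10 neuron markers summed to 10171 to 11291 CPM in TDP43 knockdown neurites against 7710 to 9394 CPM in control neurites. The part of either list in the receptor result was not tested.

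With hnRNPA1 knockdown edgeR with TMM called 0 of the 8 protein genes in neurites, in soma and for the neurite to soma ratio, where 16.1% (8.9% higher, 7.19% lower), 7.07% (3.77% and 3.29%) and 0.177% of all genes were called. At an unadjusted p under 0.05 there was 1 in neurites (SRP72), 0 in soma and 0 for the ratio, and DESeq2 and limma-voom called 0 in each. With library sizes 0 were higher and 4 lower in neurites, SRP9 at -0.28 (adjusted p = 0.0406), SRP54 at -0.26 (adjusted p = 0.0227), SRP72 at -0.25 (adjusted p = 0.00405) and SRPRA at -0.24 (adjusted p = 0.0164), and 0 were called in soma and for the ratio. SRP72 had 129, 131 and 139.8 CPM (lowest, median and highest) in knockdown neurites against 131, 145 and 154 CPM in control neurites, a log2 change of -0.11 ± 0.05, adjusted p = 0.15. The 8 log2 changes ran from -0.13 (SRP9) to 0.03 (SRP19) in neurites and from -0.12 (SRPRB) to 0.08 (SRP14) in soma. SRPRA had 32.1, 38.2 and 40.9 CPM in hnRNPA1 knockdown neurites against 38.0, 39.2 and 43.22 CPM in control neurites (-0.10 ± 0.06, adjusted p = 0.338), and SRPRB had 22.9, 24.3 and 29.6 CPM against 21.8, 25.7 and 27.6 CPM (-0.02 ± 0.08, adjusted p = 0.883). The 95% interval of the SRPRA change in neurites was -0.22 to 0.03 on the log2 scale, and that of SRPRB -0.17 to 0.13. A difference between the effects of the 2 knockdowns was not tested.

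**Figure D3:**
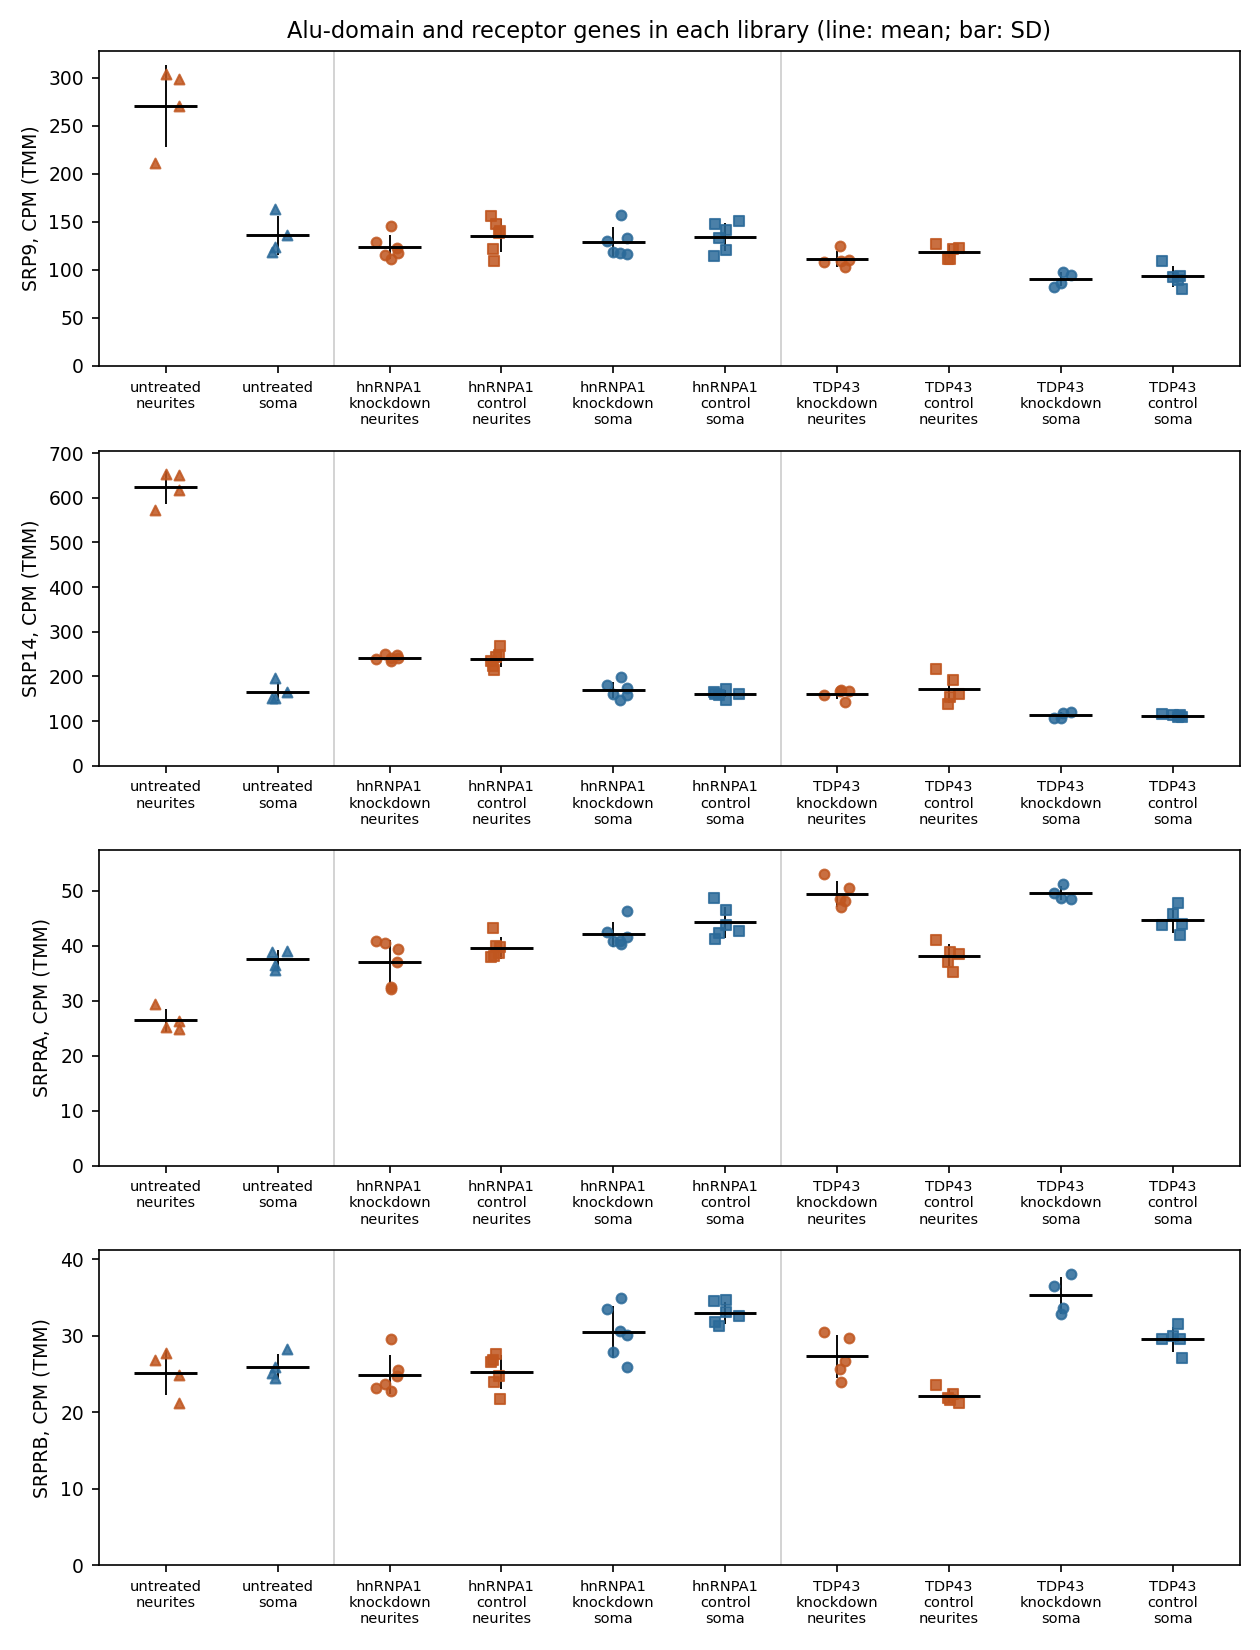
SRP9, SRP14, SRPRA and SRPRB in each library, in CPM after TMM scaling, with a line at the group mean and a bar of 1 SD. SRP14 stands at 573 to 653 CPM in untreated neurites and under 270 CPM in each other group, and both receptor genes are higher in TDP43 knockdown neurites than in control neurites without overlap. Experiments were scaled separately, and untreated cells had another kit version.

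**Figure D4:**
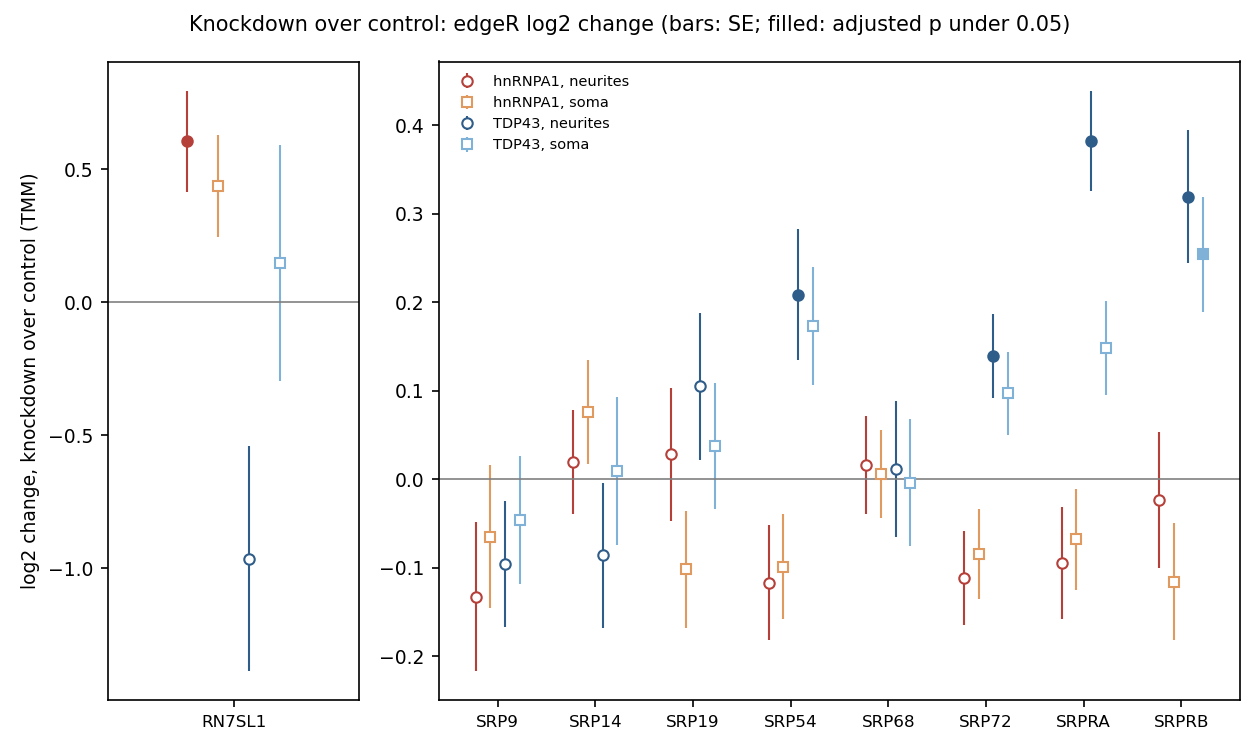
Log2 change of knockdown over control from edgeR with TMM for RN7SL1 (left) and the 8 protein genes (right), with bars of 1 SE and filled symbols where the adjusted p was under 0.05. SRPRA (0.38), SRPRB (0.32), SRP54 (0.21) and SRP72 (0.14) are filled for TDP43 neurites, SRPRB for TDP43 soma, RN7SL1 for hnRNPA1 neurites, and no protein gene for hnRNPA1.

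Per kilobase of exon, in CPM per kb, SRP14 was the highest of the protein genes in every group and SRP19 the lowest. In TDP43 control soma the levels were 76.0 for SRP14, 53.9 for SRP9, 26.4 for SRP72, 14.4 for SRPRA, 12.5 for SRP54, 12.2 for SRP68, 10.46 for SRPRB and 4.25 for SRP19. In untreated neurites SRP14 stood at 422 and SRP9 at 157, against 49.3 for SRP72 and 2.64 for SRP19. SRP14 and SRP9 were both highest in untreated neurites, whose ranges are clear of the next group, and lowest in the TDP43 soma groups. SRP19 was lowest in untreated neurites, again clear of the next group, as was SRPRA. These orders cross experiments that were scaled separately, and kit version goes with the untreated cells, so they cannot be read as differences of level alone. Most other neighbouring groups overlap in each gene's order. SRP19, SRP54, SRP68, SRP72, SRPRA and SRPRB are on chromosomes 5, 14, 17, 4, 11 and 3, SRP9 is on chromosome 1 and SRP14 on chromosome 15, so no pair of protein genes shares a locus.

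Genes that act beside the particle were counted by list, and these lists too were chosen with earlier results of these data known. The translocon and signal peptidase genes form the channel and the enzyme that a targeted chain meets. In TDP43 knockdown neurites 9 of 17 were higher and 0 lower, where 13.9% of all genes were called higher and 10.8% lower, with a median log2 change of 0.27 against -0.03 over all genes (7 and 0 with library sizes). SSR1, a subunit of the translocon-associated complex, had 174 ± 11.3 CPM with knockdown and 109 ± 8.47 CPM in controls (0.68 ± 0.06, adjusted p = 6.25e-10). SEC61A1, the channel's pore subunit, had 149 ± 10.9 CPM with knockdown and 98.0 ± 5.29 CPM in controls (0.60 ± 0.06, adjusted p = 4.98e-09, n = 5 each). SEC61G (0.54) and SSR3 (0.42) came next. In TDP43 knockdown soma 3 were higher and 0 lower, SSR1, SEC11A and SEC63, by 0.24 to 0.28 (9.36% and 9.55% of all genes), and with library sizes 0 were called. The neurite to soma ratio of SEC61A1 and SSR1 was higher with knockdown, by 0.51 ± 0.08 (adjusted p = 0.000133) and 0.40 ± 0.08 (adjusted p = 0.00206), where 5.77% of all genes were called higher and 4.66% lower. With library sizes these values were 0.58 and 0.47 and no gene of the list was called for the ratio. In the hnRNPA1 experiment 1 was higher and 1 lower with knockdown in neurites (TRAM2 by 0.45 and SEC61A2 by -0.22), against 8.9% and 7.19% of all genes, and 0 and 1 in soma (SPCS3 by -0.23), against 3.77% and 3.29%. With library sizes 0 were higher and 8 lower in neurites, and 0 and 1 in soma.

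Between neurites and soma the list was mixed. In untreated cells 12 were higher and 2 lower in neurites, where 28.7% of all genes were called higher and 27.8% lower, with a median of 0.86, led by SSR4 (2.75) and the signal peptidase subunits SEC11A (1.75) and SEC11C (1.73), but with library sizes 4 were higher and 11 lower. In hnRNPA1 knockdown 6 were higher and 4 lower, in hnRNPA1 controls 7 and 4, in TDP43 knockdown 10 and 2 and in TDP43 controls 5 and 4 (the shares of all genes are those given for the 8 protein genes), while with library sizes these counts were 0 and 13, 0 and 9, 1 and 10, and 1 and 15. SSR4 was higher in neurites in each of these sets with TMM, by 0.27 to 1.06.

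Other targeting routes and factors at the nascent chain gave a like picture. NACA, a subunit of the complex that binds nascent chains beside the signal recognition particle, was higher in neurites by 3.56 in untreated cells, where it had 3360 ± 613 CPM in neurites and 284 ± 33.9 CPM in soma (n = 4 each, 2.31 with library sizes). In the other sets it was higher by 1.44 to 1.8. Its partner BTF3 was higher by 2.50 in untreated cells (1.25 with library sizes). Of 16 genes tested in untreated cells 11 were higher and 1 lower in neurites, against 28.7% and 27.8% of all genes (4 and 10 with library sizes). Of 18 in the other sets, 4 were higher and 1 lower in hnRNPA1 knockdown, 4 and 2 in hnRNPA1 controls, 7 and 2 in TDP43 knockdown and 4 and 0 in TDP43 controls, where with library sizes 1 was higher and 11 to 13 were lower in each set. The shares of all genes in these sets were 19.4 to 28.6% higher and 16.5 to 29% lower with TMM. In TDP43 knockdown neurites 4 were higher than in controls and 0 lower, against 13.9% and 10.8% of all genes (2 and 0 with library sizes): EMC1 (0.64 ± 0.06, adjusted p = 8.27e-09) and EMC10 (0.24), subunits of a membrane insertase, NACA (0.34) and SGTA (0.19). In TDP43 soma 1 was higher (EMC3, 0.20, and 0 with library sizes), against 9.36% of all genes called higher. hnRNPA1 knockdown gave 1 higher and 1 lower in neurites (TMEM208, 0.41, and EMC7, -0.21), against 8.9% and 7.19% of all genes, and 0 in soma. With library sizes 1 was higher and 7 lower in hnRNPA1 neurites and 0 were called in soma.

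7SL shares its polymerase with other small RNAs, of which 6 passed the filter on low counts. BCYRN1, a primate brain RNA whose first part resembles the Alu domain, was higher in neurites by 5.61 ± 0.26 in untreated cells, at 1538 ± 687 CPM in neurites and 31.2 ± 4.56 CPM in soma (SD, n = 4 each). In the other sets it was higher by 2.92 to 3.55. Of the 6, 4 were higher and 2 lower in untreated neurites, 4 and 0 in both hnRNPA1 sets, 3 and 1 in TDP43 knockdown and 6 and 0 in TDP43 controls (with library sizes 4 and 2, 4 and 0 in hnRNPA1 controls, 3 and 1 in hnRNPA1 knockdown, 3 and 3, and 4 and 0). Over all genes 28.7% were called higher and 27.8% lower in untreated neurites, and 19.4 to 28.6% and 16.5 to 29% in the other sets. In TDP43 knockdown neurites 4 were lower than in controls, VTRNA1-3, a vault RNA (-1.98), and the Y RNAs RNY3 (-1.51), RNY1 (-1.06) and RNY4 (-1.04), and BCYRN1 was higher (0.46). There 10.8% of all genes were called lower and 13.9% higher. The BCYRN1 call was lost without control neurite sample 1, 2 or 6 or knockdown neurite sample 1 or 5. VTRNA1-3 had 3.98 ± 1.63 CPM in knockdown neurites and 15.6 ± 7.50 CPM in control neurites (adjusted p = 1.52e-06). In TDP43 soma BCYRN1 had 47.0 ± 3.23 CPM with knockdown (n = 4) and 25.0 ± 1.55 CPM in controls (n = 5), a log2 change of 0.91 ± 0.18 (adjusted p = 0.000436). With hnRNPA1 knockdown 3 were higher in soma (RNY4, RNY1 and VTRNA1-3, by 0.46 to 0.96) and 2 in neurites (RMRP, 0.83, and RNY4, 0.64), against 3.77% and 8.9% of all genes called higher. With library sizes 3 were higher in hnRNPA1 soma and 1 in neurites, and 2 were higher in TDP43 soma and 1 higher and 4 lower in TDP43 neurites.

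The 22 genes of RNA polymerase III, its factors and SSB, which binds the ends of its transcripts, had 9 higher and 5 lower in untreated neurites (3 and 15 with library sizes). POLR3G, a polymerase subunit, had 98.4 ± 12.5 CPM in neurites and 6.58 ± 0.507 CPM in soma (3.88 ± 0.12, adjusted p = 1.74e-16). In hnRNPA1 knockdown 6 were higher and 2 lower, in hnRNPA1 controls 8 and 9, in TDP43 knockdown 7 and 10 and in TDP43 controls 5 and 8 (2 and 17, 2 and 14, 2 and 15, and 1 and 19 with library sizes). Among all genes 28.7% were called higher and 27.8% lower in untreated neurites, and 19.4 to 28.6% and 16.5 to 29% in the other sets. With TDP43 knockdown POLR3A, the largest subunit, was lower in neurites (-0.27) and in soma (-0.45 ± 0.05, adjusted p = 2.02e-07), where it had 75.6 ± 1.66 CPM with knockdown and 103 ± 3.04 CPM in controls. POLR3D was higher in knockdown neurites (0.66). The totals were 3 higher and 3 lower in neurites and 1 and 1 in soma for TDP43, and 4 and 1 in neurites and 1 and 0 in soma for hnRNPA1. Of all genes 13.9% were higher and 10.8% lower in TDP43 neurites, and 8.9% and 7.19% in hnRNPA1 neurites. In soma these shares were 9.36% and 9.55% for TDP43 and 3.77% and 3.29% for hnRNPA1. With library sizes the totals were 1 and 0 in neurites and 0 and 1 in soma for TDP43, and 0 and 3 in neurites and 1 and 0 in soma for hnRNPA1, so the split in hnRNPA1 neurites turned.

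The 677 genes named as 7SL pseudogenes repeat stretches of the same sequence, so their counts are not independent of RN7SL1. Of those that passed the filter, 21 of 22 were higher and 1 lower in untreated neurites, where 28.7% of all genes were called higher and 27.8% lower. In hnRNPA1 knockdown 26 of 45 were higher and 4 lower, in hnRNPA1 controls 26 and 8, in TDP43 knockdown 27 of 68 higher and 17 lower and in TDP43 controls 32 and 4 (with library sizes 17 and 1, 25 and 15, 24 and 13, 27 and 29, and 28 and 21). The shares of all genes in these 4 sets were 19.4 to 28.6% higher and 16.5 to 29% lower. In hnRNPA1 knockdown neurites 15 were higher than in controls and 0 lower (12 and 0 with library sizes), and in soma 5 and 0 (6 and 0), against 8.9% and 3.77% of all genes called higher. In TDP43 knockdown neurites 0 were higher and 1 lower (0 and 4 with library sizes), and in soma 3 and 0 (2 and 0). Over all genes 13.9% were called higher and 10.8% lower in those neurites, and 9.36% and 9.55% in that soma.

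Among 15989 other genes that passed the filter in all 3 experiments, the levels most like those of 7SL over the 10 group means were RNY1 (Pearson r = 0.967), CCDC9 (0.954), ARHGAP17 (0.949), ENSG00000291201.1 (0.945) and BBLN (0.941), on log2(CPM + 1). Over the deviations of the 51 libraries from their group means they were RN7SKP71 (0.843), 7SK (0.839), RMRP (0.820), RN7SKP255 (0.815) and RN7SKP203 (0.810), all of them noncoding RNA genes and 4 of them copies of 7SK by name. The 8 protein genes ran from -0.257 (SRPRB) to 0.255 (SRP68) over the deviations, and BCYRN1 had 0.459. For the mean of the 6 SRP protein genes the most like genes were POLE4 (0.986), ADAM10 (0.983), NKAP (0.980), PAK1IP1 (0.980) and EIF2S2P4 (0.978) over group means, and MORF4L1 (0.880), ARF4 (0.821), CALM2 (0.797), SNX6 (0.789) and CAPZA1 (0.788) over deviations. These are descriptions over points that share libraries, depth and scaling.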

How the data were processed

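The table holds expected counts per gene that the authors deposited. Per the submitters' processing notes, the tools were STAR 2.7.11b, Subread 2.0.6 and featureCounts, and the build hg38. Of the nonzero values 81.1% were whole within 0.005. RN7SL1 had a fractional value in 98.0% of libraries, against 7.8% (SRPRB) to 60.8% (SRP9) for the protein genes. How these fractions arose was not tested. Which annotation was counted, whether strand was used and how reads with several matches were treated is not given in the sources. The deposited counts were rounded for tests. Of 52 libraries 51 were used, and 1 TDP43 knockdown soma library with fewer than 100000 counts was left out. Groups follow the labels. Names matched 62030 of 63241 identifiers, and positions and transcript identities come from GENCODE release 29. The 7SL sequences themselves are not reported here.

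All groups of an experiment entered 1 fit, 3 fits in all, by the quasi-likelihood test of edgeR 4.0.16 (R 4.3.3) with TMM scaling and filterByExpr, and 11 contrasts were adjusted over all genes tested by Benjamini-Hochberg and called under 0.05. The 7SL share was compared by 2-sided exact permutation, adjusted over 9 comparisons. Alternatives used DESeq2 1.42.0, limma-voom (limma 3.58.1), library sizes, TMM without the RN7SL genes, no filter, a replicate block and each library left out. The fits were also run on simulated counts, but no outcome of that run is reported here, so it lends no support to the calls. Other steps used Python 3.11.15, scipy 1.17.1 and pandas 2.3.3.

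The text describes the 10 genes, and up to 4 called genes of each pathway list with the largest log2 change, besides the 5 genes most like 7SL. The members and lists were chosen with earlier results of these data known. Same-numbered samples deviated together in TDP43 soma (correlations of 0.13 to 0.14 over 3 pairs of knockdown and control), a hint of pairing from the data alone. The main fits and the share test did not use pairing, and the replicate block was run as an alternative. No pair of libraries of a group agreed within sampling noise (chi-square per degree of freedom of 1.91 or more). Wilson intervals and limits of 0 counts cover counting error only.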

Additional observations from a re-analysis of the deposited data

Results flagged for a closer look

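Single libraries stood apart from their group in 6 of 90 tests of the members by group, with Dixon's test at the 95% level, where chance alone gives about 1 in 20. The 7SL share of hnRNPA1 control neurite sample 3 was 3.54%, below the other 5 libraries at 6.70 to 7.85%. SRP54 of TDP43 knockdown neurite sample 5 was 39.1 CPM, above the others at 29.1 to 30.7 CPM. SRPRA was 43.22 CPM in hnRNPA1 control neurite sample 5, above the others at 38.0 to 39.9 CPM, and 46.3 CPM in hnRNPA1 knockdown soma sample 4, above the others at 40.3 to 42.4 CPM. SRP72 was 162 CPM in hnRNPA1 control soma sample 6, above the others at 138.8 to 146.6 CPM. SRP19 was 25.6 CPM in untreated soma sample 4, above the others at 19.2 to 19.8 CPM.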

How the results depend on the processing

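Over the alternatives run, the 8 protein genes kept their side of the threshold without a counted reversal in 2222 of 2312 cases. They lost the call in 39, gained it in 35 and reversed in 16. RN7SL1 kept its side in 267 of 278, lost the call in 4 and gained it in 7. Changes of sign in genes that neither fit called were not counted as reversals, so direction was not kept in all of these cases. With library sizes SRP14 went from -0.09 to 0.02 between TDP43 knockdown and control neurites. SRP19 went from 0.03 to -0.12 between hnRNPA1 knockdown and control neurites. The reversals came with library sizes in place of TMM, neurites over soma: SRP9 -0.26 in untreated cells, -0.34 in hnRNPA1 controls, -0.23 in TDP43 knockdown and -0.27 in TDP43 controls, SRP14 -0.0207 in TDP43 knockdown and -0.0336 in TDP43 controls, SRP68 -0.32 and -0.24 in hnRNPA1 knockdown and controls and -0.44 and -0.53 in TDP43 knockdown and controls, SRP72 -0.996 in untreated cells and -0.52 in TDP43 knockdown, SRP54 -0.39 and -0.29 in hnRNPA1 knockdown and controls, SRP19 -0.40 in hnRNPA1 knockdown and SRPRA -0.53 in TDP43 knockdown. That scaling shifts all genes, so values relative to the median gene are close under both by construction. Their closeness does not show that the reversed calls hold.

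Counts of calls among the 8 protein genes moved by over 1.5 times in these cases. With library sizes they were 8 in hnRNPA1 controls (1 higher, 7 lower), 7 in hnRNPA1 knockdown and 6 in TDP43 knockdown between fractions (all lower), 4 in hnRNPA1 neurites (all lower), 2 in TDP43 neurites (both higher) and 0 in TDP43 soma. With no filter they were 1 in hnRNPA1 neurites and 2 in TDP43 neurites. TDP43 soma gave 2 with TMM without the RN7SL genes, 2 with DESeq2 and 3 with limma-voom, and the TDP43 ratio gave 1 with DESeq2 and 1 with limma-voom. Leaving out single libraries gave 2 to 4 in TDP43 neurites, 1 to 3 in TDP43 soma and 0 to 1 for the ratio. The cause was not tested. Over all genes the hnRNPA1 ratio had 35 calls, against 78 with DESeq2, 70 with library sizes, 158 with no filter and 55 with the block.

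The 7SL share difference on the log2 scale was 2.27 for TDP43 knockdown fractions (adjusted p = 0.0312, exact permutation). Leaving out single libraries it was 0.515 to 0.725 percentage points in untreated cells, 4.91 (without neurite sample 2) to 9.19 in TDP43 knockdown, -11.4 to -5.64 between TDP43 knockdown and control neurites, 0.0438 to 0.255 between TDP43 knockdown and control soma, 0.387 to 0.556 between hnRNPA1 knockdown and control soma, and 1.93 to 3.10 between hnRNPA1 knockdown and control neurites.

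In the labels the samples share only a number. Outside TDP43 soma the lowest correlation of same-numbered pairs was -0.26 to 0.07. Every paired sample correlated best with its own number in TDP43 soma, untreated cells and TDP43 knockdown fractions, a hint from the data and not the design. With the replicate block the share differences were 0.609 in untreated cells (adjusted p = 0.161), 7.30 and 5.21 in hnRNPA1 knockdown and controls, 16.5 in TDP43 controls, 0.476 in hnRNPA1 soma and 2.56 in hnRNPA1 neurites (adjusted p = 0.112 each), where few sign patterns are possible. The block left 2 of the 4 calls in TDP43 neurites and 1 call in TDP43 soma. Whether depth, the annotation counted or the treatment of reads with several matches bears on the 0 counts of RN7SL2 was not tested.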
